A study of Homo sapiens with 6 samples.

Results

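The protein genes of the mitochondrial ribosome were followed in 2 cancer cell lines in which SPOP was knocked down. Members were the rows whose whole symbol reads MRPL or MRPS with a number and an optional A, B or C, and values listed more than once under 1 symbol were summed. This gave 74 of the 24551 genes, 47 with a large subunit symbol and 27 with a small subunit symbol. A mean of at least 1 FPKM (fragments of a gene divided by its transcript length and by the mapped total of the library) over the 6 libraries was reached by 73 members, 47 large and 26 small, and by 11865 genes in all. SPOP, the substrate-binding adaptor of a CUL3 ubiquitin ligase, was targeted in DU145, a prostate carcinoma line from a brain metastasis, and in 769-P, a renal cell adenocarcinoma line. Polyadenylated RNA was sequenced from each line after a control siRNA (NC), SPOP siRNA 1 or SPOP siRNA 2, with 1 library per transfection, and the time after transfection is not given in the labels. The study's methods speak of 2 biological replicates, whereas the labels hold 1 library each, so the siRNA libraries of a line were its only replicates and both were compared with the same control library. The p-values below therefore measure only the spread between these libraries.

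The mitochondrial ribosome translates the messages of the mitochondrial genome, which encode membrane subunits of the respiratory chain and of ATP synthase. Its RNAs come from the mitochondrial genome, whereas all its proteins are encoded in the nucleus, made in the cytosol and imported. The large subunit carries the peptidyl transferase centre and the small subunit decodes the message. Many of the proteins descend from bacterial ribosomal proteins, and others were added in mitochondria. In structures of the human particle MRPS30 and MRPS18A sit in the large subunit in spite of their symbols, and MRPS36 belongs to the 2-oxoglutarate dehydrogenase complex.

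SPOP itself was left at 17.2% and 18.4% of the control FPKM in DU145 and at 13.2% and 12.04% in 769-P. PAX8, a renal lineage factor, stood at 106 to 125 FPKM in 769-P and at 1.10 to 1.47 FPKM in DU145, while the prostate genes HOXB13 and KLK3 were at or below 0.312 FPKM in all libraries, DU145 included. The depth of each library relative to the 769-P control, read from the steps of low values, was 0.685 to 1.42. Of 366 olfactory receptor genes, which neither line should use, signal was listed for 287 in the control library of DU145 and for 237 in that of siRNA 2 in 769-P, and for 3 to 5 elsewhere. The mean of these genes was 0.345 FPKM at most, well under the 3.06 FPKM of the lowest value of any member that passed the filter.

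The members have no common position. On GRCh37 they lie on 21 chromosomes, with at most 8 on 1 chromosome (chromosome 1) and 0 on X, and 45 of the 74 overlap another annotated gene, 37 of them one on the other strand. A pseudogene named after the member is annotated for 34. How reads on overlapping genes or pseudogenes were assigned is not given in the sources used here, so the values of those members are less certain. Promoters (250 bases before to 50 after the start of the gene) were taken from RefSeq on GRCh38.p14, a later build than the hg19 of the expression values, and 65 of the 74 members matched by symbol. MRPL10, MRPL13, MRPL15, MRPL2, MRPL21, MRPL23, MRPL35, MRPS28 and MRPS36 had no match.

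Promoters of 4 members are printed 5′ to 3′ on the strand of the gene. MRPL50 (chr9:101398569-101398868, minus strand) and MRPS33 (chr7:141014903-141015202, minus strand) are shown because they differed most between the siRNAs. MRPS21 (chr1:150293611-150293910, plus strand) is shown because it had the largest difference in favour of DU145, and MRPL52 (chr14:22829637-22829936, plus strand) because it held all 3 of the motifs searched. Capitals mark matches, on either strand, to the NRF1 core GCGCATGC, the ETS core CCGGAAG or the YY1 core AAGATGGC. The 2 orientations of the NRF1 core can overlap each other.
MRPL50: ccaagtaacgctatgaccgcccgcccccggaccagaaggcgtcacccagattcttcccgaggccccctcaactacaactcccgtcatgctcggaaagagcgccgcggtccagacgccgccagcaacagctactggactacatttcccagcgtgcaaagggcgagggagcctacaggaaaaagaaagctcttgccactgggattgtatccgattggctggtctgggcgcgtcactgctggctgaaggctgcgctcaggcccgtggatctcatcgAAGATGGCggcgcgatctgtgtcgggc
MRPS33: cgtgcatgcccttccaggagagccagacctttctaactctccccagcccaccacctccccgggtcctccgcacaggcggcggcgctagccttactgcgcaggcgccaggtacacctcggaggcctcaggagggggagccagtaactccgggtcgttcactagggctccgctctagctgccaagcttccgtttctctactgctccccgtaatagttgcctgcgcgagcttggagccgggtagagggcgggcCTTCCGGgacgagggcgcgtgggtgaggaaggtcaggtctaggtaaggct
MRPS21: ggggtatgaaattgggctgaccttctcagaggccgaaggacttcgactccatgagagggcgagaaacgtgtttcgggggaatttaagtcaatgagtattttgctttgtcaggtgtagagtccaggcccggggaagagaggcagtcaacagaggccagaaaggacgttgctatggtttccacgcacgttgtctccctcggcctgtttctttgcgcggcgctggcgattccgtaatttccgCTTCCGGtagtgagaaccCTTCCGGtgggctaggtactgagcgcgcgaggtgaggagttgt
MRPL52: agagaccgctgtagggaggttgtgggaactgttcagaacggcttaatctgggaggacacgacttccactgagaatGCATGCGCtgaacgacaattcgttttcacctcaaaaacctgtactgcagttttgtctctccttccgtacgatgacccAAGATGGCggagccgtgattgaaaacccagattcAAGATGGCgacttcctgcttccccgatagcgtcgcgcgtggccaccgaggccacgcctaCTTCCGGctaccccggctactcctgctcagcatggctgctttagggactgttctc

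NRF1, ETS family factors such as GABP, and YY1 are known regulators of nuclear genes for mitochondrial proteins. The ETS core stood in 27 of the 65 member promoters (41.5%), in 19.8% of the 8521 promoters of genes tested and in 10.7% of all 27305 promoters. The YY1 core stood in 19 (29.2%), against 5.79% and 3.03%. The NRF1 core stood in 6 (9.23%), against 5.73% and 3.27%. At least 1 of the 3 was found in 39 member promoters (60%), and in 28% of the promoters of genes tested and 15.6% of all promoters. The letters TATAAA were present in 2, those of MRPL54 and MRPS15 (3.08%, against 4.89% and 12%). The median GC content of the member promoters was 60.3%, below the 66% of the genes tested. These letters are matches in a fixed window and not mapped binding sites.

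Most ETS and YY1 matches stood within 50 bases of the start of the gene. For YY1 the share was 75%, beside 71.5% over the genes tested. The 8 NRF1 matches had a median of 57 bases before the start. Of these 8, 4 (50%) lay within 50 bases of it, against 44.6% over the genes tested. Of the 20 YY1 matches in members, 14 (70%) were centred after the start, with a median of 13 bases after it, and the share was 67.4% over the genes tested. In the MRPL50 promoter printed above the match is centred 27 bases after the start. ETS matches had a median of 18.5 bases before the start, and 26 of 35 (74.3%) lay within 50 bases of it, against 56.2% over the genes tested. The single ETS match of MRPS33 is centred 3.5 bases after the start, and those of MRPS21 lie 7.5 bases before and 10.5 bases after it. The ETS core was found in 37.5% of the large and 48% of the small subunit promoters, and the YY1 core in 30% and 28%. MRPL52 held all 3 motifs, 11 members held 2, 27 held 1 and 26 held none of the 3.

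**Figure D1:**
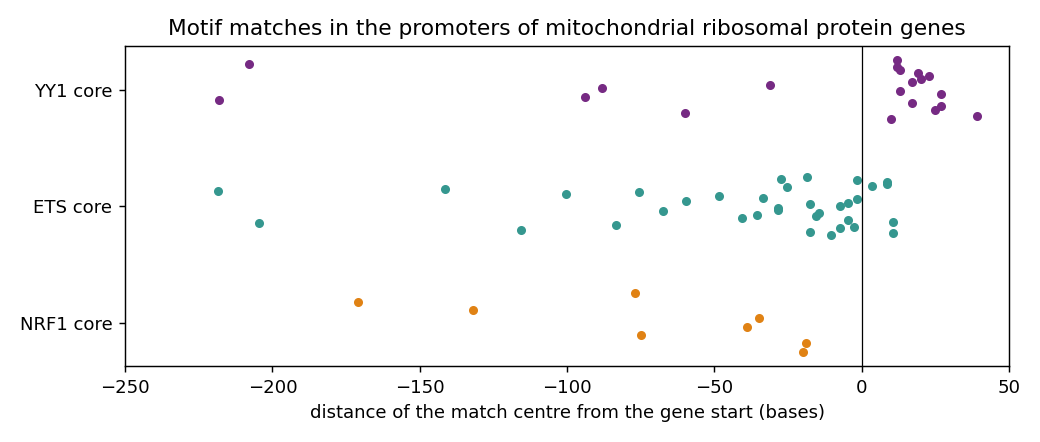
Distance of each motif match centre from the gene start (horizontal axis, bases, negative values before the start) in 65 member promoters, with 1 row per motif and vertical jitter within a row without meaning. Most YY1 matches (14 of 20) lie just after the start, and 26 of the 35 ETS matches lie within 50 bases of it.

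The members were expressed well above the typical gene. The median member had a mean of 36.8 FPKM over the 6 libraries, with quartiles of 22.0 and 62.0. Within single libraries the median over the members was 33.9 to 41.9 FPKM, against 7.94 to 10.2 FPKM over all genes tested. Together the members took 0.725% to 0.823% of all FPKM. The highest mean was 24.4-fold above the lowest among the 73 members, 6 members reached 100 FPKM and 10 were below 10 FPKM.

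In the large subunit the highest means belonged to MRPL41, MRPL12, MRPL51, MRPL4 and MRPL14, and in the small subunit to MRPS34, MRPS12, MRPS2, MRPS15 and MRPS26. MRPL41, a protein added in mitochondria, had 128, 132 and 128 FPKM in DU145 (control, siRNA 1, siRNA 2) and 137, 172 and 173 FPKM in 769-P. MRPL12, the stalk protein that also binds the mitochondrial RNA polymerase, had 119.9, 112 and 149.8 FPKM in DU145 and 154, 149 and 165 FPKM in 769-P. MRPS34, a mitochondria-specific small subunit protein, had 109, 115 and 133 FPKM in DU145 and 129, 147 and 147 FPKM in 769-P. The DU145 and 769-P libraries overlapped for MRPS34 and MRPL12, and those of MRPL41 did not. MRPS12, the homolog of the bacterial decoding-site protein S12, had 109.6, 98.8 and 114 FPKM in DU145 and 81.6, 111 and 94.6 FPKM in 769-P, again with overlap.

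At the low end stood MRPL19, with 4.91 to 7.74 FPKM over the 6 libraries, MRPL1, with 3.06 to 13.0 FPKM, and MRPL30, with 4.96 to 11.2 FPKM. The 3 paralogs of bacterial S18 were listed at different levels. MRPS18A had 28.3 to 50.2 FPKM and MRPS18C had 6.75 to 11.0 FPKM. MRPS18B, within the major histocompatibility complex on chromosome 6 (30585617 to 30594172 on GRCh37), was listed in 7 rows that were all 0 in all 6 libraries, so it is only listed at 0 and no level can be read. It was the only member below the filter.

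**Figure D2:**
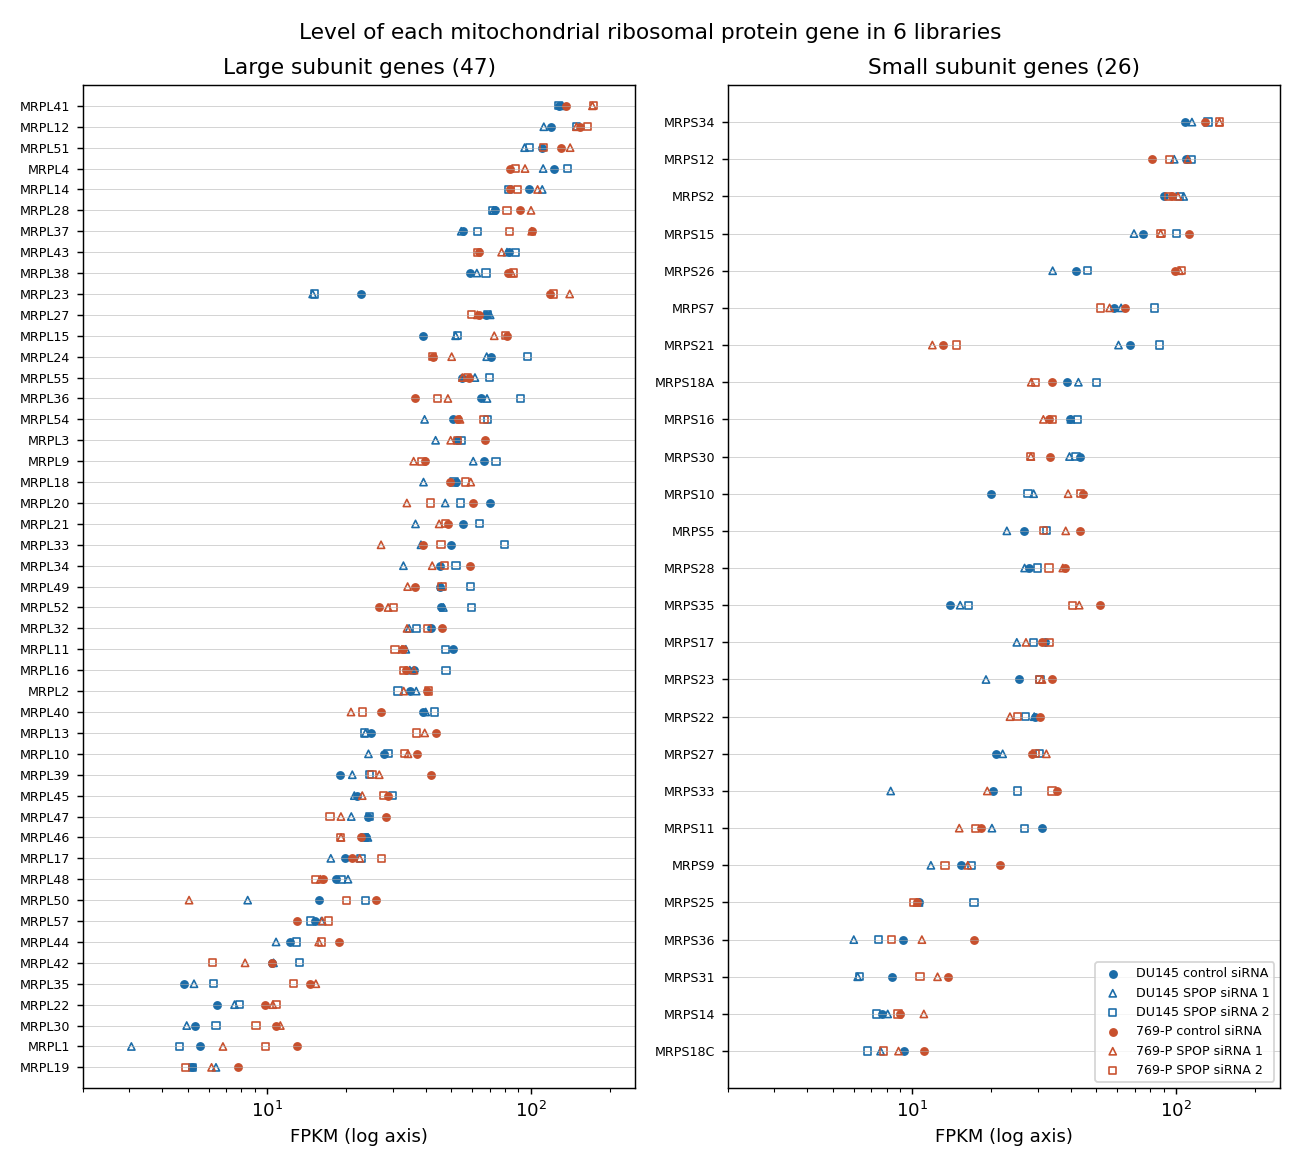
FPKM (horizontal log axis) of the 47 large and 26 small subunit members that passed the filter, 1 row per gene in order of mean, with each of the 6 libraries as its own symbol. The genes span 5.94 (MRPL19) to 145 FPKM (MRPL41) in mean, and MRPL23, MRPS21, MRPS26 and MRPS35 show wide gaps between the colours of the lines.

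The first comparison asked whether the members changed with SPOP knockdown in DU145. On the log2(FPKM + 1) scale used for these calls, none of the 73 passed 1.5-fold in 1 direction under both siRNAs. Of all genes tested, 4.72% were at least 1.5-fold higher and 1.19% at least 1.5-fold lower. With siRNA 1 alone 5 members (MRPL1, MRPL21, MRPL50, MRPS11 and MRPS33) were at least 1.5-fold lower, as were 7.42% of all genes, and with siRNA 2 alone 2 (MRPL33 and MRPS25) were at least 1.5-fold higher, as were 11.3%. Members of such counts outside the naming rule were named after their values had been seen. Without regard to size, 23 members (31.5%) were higher than the control with both siRNAs, against 43.5% of all genes, and 16 (21.9%) were lower, against 22.2%. With siRNA 1 alone 44 of the 73 members were lower, a larger share than the 42.5% of all genes. With siRNA 2 alone 22 of the 73 were lower, a smaller share than the 35.5% of all genes. With each library centred on its own median, 33 of the 73 were lower with both siRNAs, a larger share than the 35.7% of all genes. After centring 1 member, MRPL23, passed 1.5-fold lower, as did 2.32% of all genes. The DU145 control is the library with the most olfactory receptor signal. With the mean of those genes subtracted from each library, 15 of the 73 members were lower with both siRNAs, against 16.7% of all genes. Without centring or subtraction the median difference was -0.054 with siRNA 1 and 0.15 with siRNA 2 on the log2(FPKM + 1) scale. Over all genes tested these medians were 0.074 and 0.12. The summed FPKM of the members was 94.1% of the control with siRNA 1 and 112% with siRNA 2. The median absolute difference, averaged over the siRNAs, was 0.14 for the members and 0.23 for all genes. By limma with Benjamini-Hochberg adjustment 0 members passed 0.05, the lowest adjusted p being 0.786, and 0.135% of all genes passed. At an unadjusted p under 0.05 there was 1 member, MRPL23, of 744 genes.

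In DU145 the large and the small subunit had like medians, 0.020 and 0.017 as the mean over the siRNAs. The ratio of the median FPKM of large to that of small subunit members was 1.59 in the control, 1.43 with siRNA 1 and 1.70 with siRNA 2, so the siRNA libraries fell on both sides of the control. MRPL23, the homolog of bacterial L23, had 22.8, 14.9 and 15.1 FPKM in DU145, and both siRNA libraries lay below the control (log2 differences -0.58 and -0.56). MRPS10 had 19.9, 28.9 and 27.5 FPKM and was higher with both siRNAs (0.52 and 0.45). Neither reached 1.5-fold with both siRNAs, on the log2(FPKM + 1) scale, which understates the differences of low genes. In plain FPKM, both siRNA libraries of MRPL23 lay slightly more than 1.5-fold below the control.

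In 769-P more members lay below the control, by small amounts. Of the 73 members, 41 (56.2%) were lower than the control with both siRNAs, 24 of the 47 large (51.1%) and 17 of the 26 small subunit members (65.4%), against 39.5% of all genes tested. Another 16 (21.9%) were higher with both, against 31.5%. The median difference was -0.11 with siRNA 1 and -0.069 with siRNA 2, beside 0 and -0.059 over all genes. The share is read against a shift of the whole library. With each library centred on its own median, 27 of the 73 members lay below the control with both siRNAs, a larger share than the 31.6% of all genes. As the mean over the siRNAs the median was -0.057 for the large and -0.15 for the small subunit, and 0.023 and -0.072 after centring, so that the sign for the large subunit turned. The summed FPKM was 97.6% and 96.4% of the control. The 769-P siRNA 2 library is 1 of the 2 with olfactory receptor signal. With the mean of those genes subtracted from each library, 41 members (56.2%) again lay below the control in 769-P, against 42% of all genes. The subunit medians were then -0.069 (large) and -0.16 (small).

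At 1.5-fold, 0 members were higher (all genes 3.6%) and 2 were lower with both siRNAs in 769-P (2.74%, all genes 3.73%). With siRNA 1 alone 6 were lower by as much (all genes 9.84%), and with siRNA 2 alone 5 (MRPL39, MRPL42, MRPL47, MRPS36 and MRPS9, all genes 8.37%). MRPL39, a mitochondria-specific protein of the large subunit, had 41.9, 26.7 and 25.003 FPKM, so the siRNA mean of 25.8 ± 1.17 (SD, n = 2) was 0.617 of the control. In DU145 the same gene had 18.9, 21.1 and 24.4 FPKM, with the siRNA libraries above the control. MRPS36, which is not a ribosome subunit in structures, had 17.1, 10.9 and 8.35 FPKM in 769-P, and 9.24, 6.005 and 7.43 FPKM in DU145. By limma the 769-P log2 differences were -0.68 (standard error 0.22) for MRPL39 and -0.78 (standard error 0.28) for MRPS36, each with an adjusted p of 0.693. Over all members 0 passed in 769-P, as did 0.101% of all genes, and 4 of 827 genes with an unadjusted p under 0.05 were members (MRPL20, MRPL39, MRPL47 and MRPS36).

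Whether the change differed between the lines was tested as an interaction in the same fit. 0 members passed, with 0.999 the lowest adjusted p, against 0.169% of all genes, and 1 member, MRPL39, of 325 genes had an unadjusted p under 0.05. Side by side, 11 members (15.1%) were lower than the control in all 4 siRNA libraries, and so were 13.6% of all genes. They were MRPL1, MRPL11, MRPL13, MRPL20, MRPL32, MRPS11, MRPS18C, MRPS22, MRPS30, MRPS31 and MRPS36. MRPL20, the homolog of bacterial L20, named here after its values had been seen, had 70.0, 47.5 and 54.1 FPKM in DU145 and 60.4, 33.9 and 41.7 FPKM in 769-P. All 4 siRNA libraries were higher than their controls for 6 members (8.22%, all genes 20.1%), MRPL22, MRPL36, MRPL38, MRPL52, MRPS27 and MRPS34. Higher in DU145 but lower in 769-P with both siRNAs were 13 members (17.8%, all genes 10.4%), and 2, MRPL18 and MRPL23, had the opposite order (2.74%, all genes 3.39%).

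**Figure D3:**
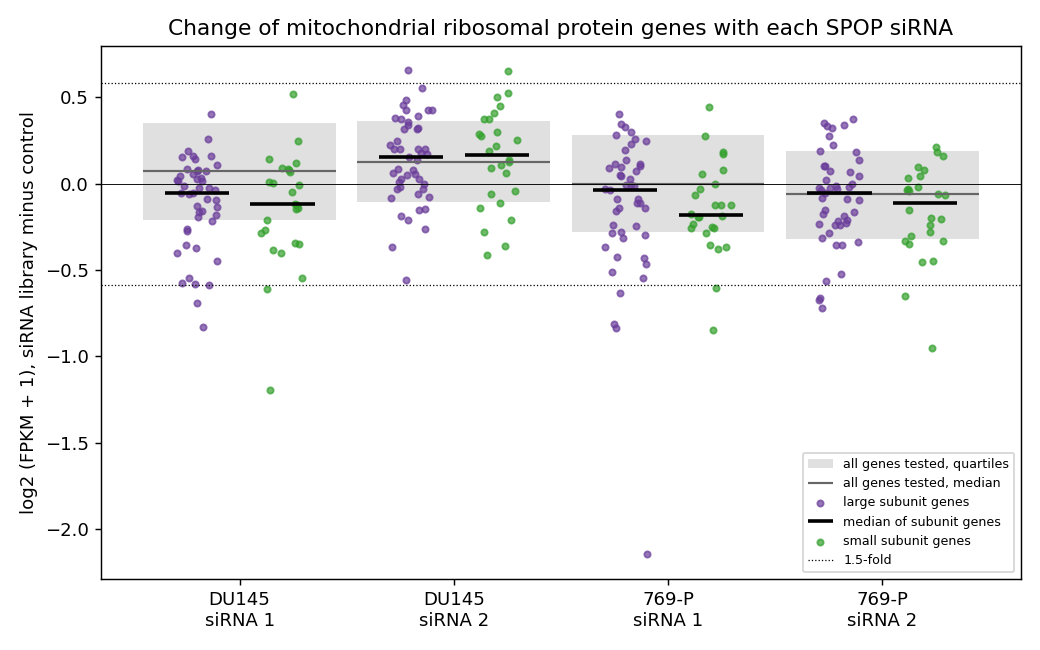
Difference of each member from its control on the log2 (FPKM + 1) scale (vertical axis) for each SPOP siRNA and line, with points for large and small subunit genes, black bars for their medians, grey boxes for the quartiles and grey lines for the median of all 11865 genes tested, and dotted lines at 1.5-fold. The subunit medians stay within the grey boxes in all 4 libraries, and the lowest point is MRPL50 with siRNA 1 in 769-P at -2.15.

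The siRNAs were also compared with each other. In DU145 siRNA 2 exceeded siRNA 1 in 58 of 73 members, a larger share than the 6538 of all 11865 genes tested. The median difference was 0.22 on the log2(FPKM + 1) scale, beside 0.046 over all genes. In 769-P 35 of 73 members were above 0, also a larger share than the 4790 of all 11865 genes. The median there was -0.0071, beside -0.071 over all genes. MRPL50, MRPS33 and MRPL33 had the largest differences in both lines. These lines share no library in this comparison, and over the 73 members the difference between the siRNAs in DU145 correlated with that in 769-P at 0.58 (Pearson) and 0.26 (Spearman). Over all genes tested these coefficients were 0.27 and 0.36, and the members of a line share its libraries. By rank the members thus correlated less than all genes. The Pearson coefficient of the members includes MRPL50, MRPS33 and MRPL33, and it was not computed without them.

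MRPL50, a mitochondria-specific protein of the large subunit encoded on the minus strand of chromosome 9 (104149915 to 104160900), had 15.8, 8.45 and 23.6 FPKM in DU145. In 769-P it had 25.9, 5.06 and 20.0 FPKM. The siRNA 1 library was thus the lowest in both lines, and siRNA 2 lay above the control in DU145 and below it in 769-P. MRPS33, a mitochondria-specific protein of the small subunit (chromosome 7, 140702410 to 140715028, minus strand), had 20.3, 8.29 and 25.2 FPKM in DU145 and 35.5, 19.3 and 33.9 FPKM in 769-P. It showed the same order, with siRNA 1 lowest and siRNA 2 near the control. MRPL33, homolog of bacterial L33, had 50.1, 38.4 and 79.6 FPKM in DU145 and 39.0, 27.1 and 45.7 FPKM in 769-P, with siRNA 1 below and siRNA 2 above the control in each line.

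As an average over the siRNAs, limma gave MRPL50 a log2 difference of -0.14 in DU145 and -1.25 in 769-P, with a standard error of 0.87 and adjusted p-values of 0.986 and 0.752. For MRPS33 it gave -0.45 in both lines, with a standard error of 0.66 and adjusted p-values of 0.926 and 0.895. MRPL50 and MRPS33 were the 2 members at least 1.5-fold below both the control and siRNA 2 in both lines, as were 0.902% of all genes (107 genes), and this criterion was chosen after the values had been seen. The reverse pattern, with siRNA 2 lowest, was met by 38 genes (0.32%) and 0 members. SPOP was left at a like level by both siRNAs, as given above. The siRNA sequences were not used here, and whether siRNA 1 bears on these transcripts other than through SPOP was not tested.

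**Figure D4:**
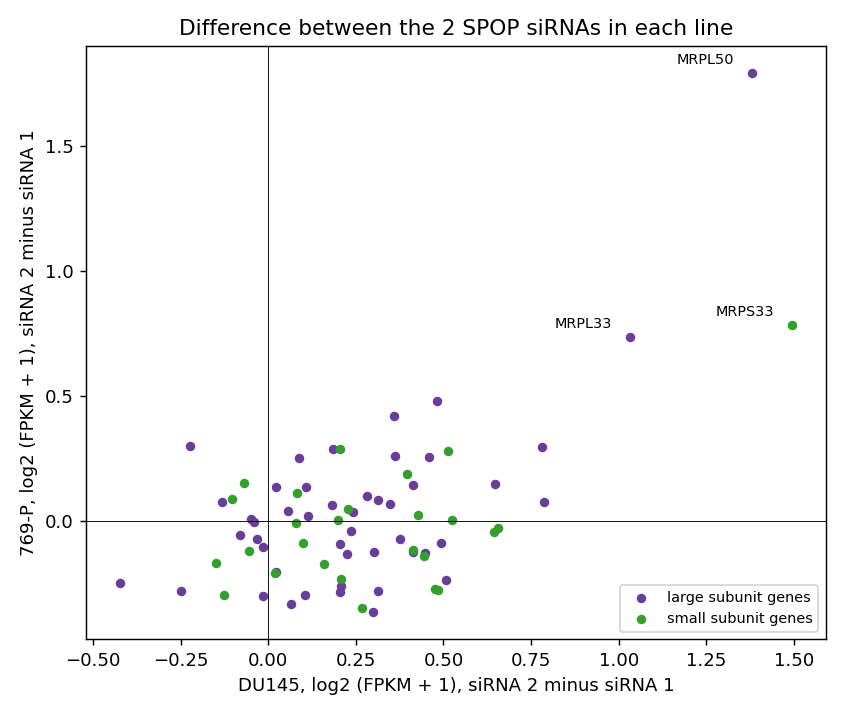
Difference between SPOP siRNA 2 and siRNA 1 on the log2 (FPKM + 1) scale in DU145 (horizontal axis) and in 769-P (vertical axis), 1 point per member, coloured by subunit. MRPL50 (1.38 and 1.79), MRPS33 (1.49 and 0.78) and MRPL33 (1.03 and 0.73) stand apart from the other members at the upper right.

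The last comparison set the lines against each other over all 6 libraries. Averaged with equal weight over the control and the knockdown group, 20 members differed by limma (27.4%), 7 higher and 13 lower in DU145, whereas 42.1% of all genes tested differed, 26.8% higher and 15.3% lower. After centring each library on its median, 28 of the 73 members differed, 6 higher and 22 lower in DU145. Over all genes 44.7% differed, 22.8% higher and 21.9% lower. With any 1 siRNA library left out fewer members differed, and a smaller share of the members than of all genes. The median absolute difference was 0.33 on the log2(FPKM + 1) scale for the members and 0.54 for all genes. The 3 DU145 values lay wholly above those of 769-P for 18 members (24.7%, all genes 35.1%) and wholly below for 21 (28.8%, all genes 21.2%). After centring, 9 of the 73 members lay wholly above, a smaller share than the 28% of all genes. Wholly below lay 33 of the 73, a larger share than the 29.8% of all genes. The signed median was -0.14 for the members and 0.16 for all genes. Across the 73 members the line means correlated with a Pearson coefficient of 0.84 and a Spearman coefficient of 0.82, and across all genes with 0.80 and 0.78. In bulk RNA, a lower level in all cells and loss from some of the cells cannot be told apart.

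The largest difference was that of MRPL23 (chromosome 11, 1968508 to 2005752, plus strand), a homolog of bacterial L23 at the tunnel exit, with 14.9 to 22.8 FPKM in DU145 and 119 to 141 FPKM in 769-P. The mean over the control and both siRNA libraries was 17.6 ± 4.47 FPKM in DU145 and 127 ± 11.96 FPKM in 769-P (SD, n = 3). It was 7.22-fold higher in 769-P (limma log2 difference -2.69, standard error 0.15, adjusted p = 0.000341). The SD thus includes the gap between control and knockdown, while the limma standard error rests on the siRNA pairs. The antisense gene MRPL23-AS1 overlaps MRPL23, and its reads cannot be told apart from those of MRPL23 without strand. MRPS35, a mitochondria-specific small subunit protein, had 13.9, 15.2 and 16.4 FPKM in DU145 and 51.4, 43.1 and 40.5 FPKM in 769-P (-1.58, standard error 0.15, adjusted p = 0.00116). All 3 of its 769-P values were more than 2-fold above all DU145 values.

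MRPS26 had 34.1 to 46.3 FPKM in DU145 and 99.7 to 105 FPKM in 769-P (log2 difference -1.30, limma adjusted p = 0.00361). MRPL35 had 4.83 to 6.26 FPKM in DU145 and 12.6 to 15.3 FPKM in 769-P (-1.28, limma adjusted p = 0.00427). Both were thus more than 2-fold higher in 769-P in the mean, 2.52-fold and 2.59-fold. In the other direction stood MRPS21, the homolog of bacterial S21, with 67.1, 60.7 and 87.1 FPKM in DU145 and 13.1, 11.9 and 14.7 FPKM in 769-P (2.32, standard error 0.21, limma adjusted p = 0.00104). Its mean over the control and both siRNA libraries was 71.6 ± 13.8 FPKM in DU145 and 13.2 ± 1.39 FPKM in 769-P (SD, n = 3). It was 5.41-fold higher in DU145, and 8 pseudogenes are named after MRPS21. These 5 genes passed under all 14 settings of the fit, leaving out any siRNA library included.

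**Figure D5:**
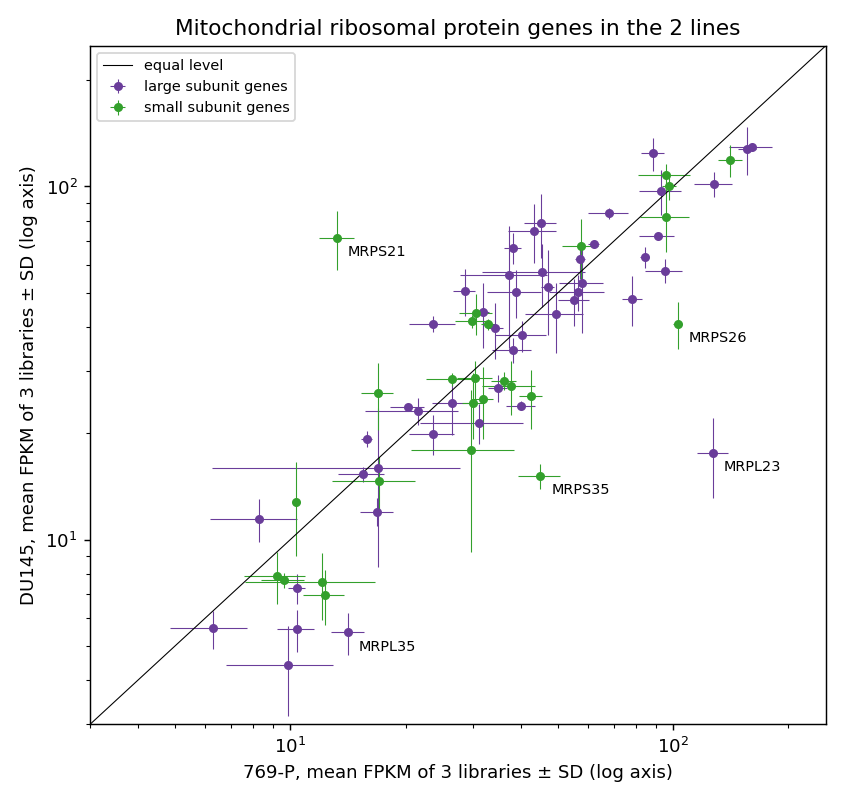
Mean FPKM of each member in 769-P (horizontal log axis) and DU145 (vertical log axis), with a diagonal for equal level. Bars show the SD over the 3 libraries of a line, control and both siRNAs together. MRPS21 lies above the diagonal and MRPL23, MRPS26, MRPS35 and MRPL35 lie below it, while most members lie near it.

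The other 15 members that differed between the lines did so by 2.23-fold (MRPL1) or less in mean FPKM. Higher in 769-P were MRPL1, MRPL13, MRPL15, MRPL30, MRPL37, MRPL39, MRPS10, MRPS31 and MRPS36, with limma log2 differences of -1.02 (MRPL1) to -0.64 (MRPS36) and adjusted p-values of 0.00892 (MRPS10) to 0.0496 (MRPS36). MRPL1, the homolog of the bacterial L1 stalk protein, had 5.56, 3.06 and 4.66 FPKM in DU145 and 13.0, 6.80 and 9.90 FPKM in 769-P, with no overlap. Higher in DU145 were MRPL9, MRPL24, MRPL36, MRPL40, MRPL52 and MRPS11, with 0.62 (MRPS11) to 0.79 (MRPL52) and adjusted p-values of 0.0138 (MRPL9) to 0.0472 (MRPS11). Calls near the threshold depended on the settings, and over 13 alternatives MRPS11 passed in 4 and MRPS36 in 6. MRPL52, whose promoter is printed above, had 45.7, 46.7 and 59.7 FPKM in DU145 and 26.6, 28.8 and 30.3 FPKM in 769-P, with no overlap.

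Members with a bacterial homolog (44) and mitochondria-specific members (28) were also read apart. In DU145 11 of 44 (25%) and 12 of 28 (42.9%) were higher with both siRNAs, beside 43.5% of all genes, and in 769-P 23 (52.3%) and 17 (60.7%) were lower, beside 39.5%. Between the lines 12 (27.3%) and 7 (25%) passed in limma, beside 42.1%. Differences between these classes were not tested. Members with a YY1 core (18 that passed the filter) had medians of 0.017 and 0.28 in DU145 and -0.21 and -0.19 in 769-P with siRNA 1 and siRNA 2, and those without it (46) had -0.092, 0.15, -0.077 and -0.053. With the ETS core (27) the medians were -0.091, 0.14, -0.066 and -0.084, and without it (37) -0.037, 0.19, -0.14 and -0.056. These are descriptions of promoter classes with no test.

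Other genes of mitochondrial gene expression were counted in the same way, and 0 genes of any of these lists passed limma for knockdown in either line. The 1.5-fold calls below were met over all genes tested by 4.72% (higher) and 1.19% (lower) in DU145 and by 3.6% and 3.73% in 769-P. Of 25 assembly factors of the mitochondrial ribosome, 0 passed 1.5-fold in DU145 and 3 were higher in 769-P, YBEY (1.86, 4.30 and 5.57 FPKM), MRM1 (12.9, 21.4 and 20.5 FPKM) and WBSCR16 (30.7, 48.3 and 49.0 FPKM). YBEY is an endoribonuclease and MRM1 a methyltransferase of the large ribosomal RNA. Of 15 translation factors 1 was higher in DU145, the initiation factor gene MTIF3 with 5.34, 11.9 and 11.7 FPKM, and 10 were lower than the control with both siRNAs in 769-P (all genes 39.5%) without passing 1.5-fold. Of 19 mitochondrial tRNA synthetases FARS2, for phenylalanine, was higher in 769-P (5.33, 9.38 and 8.79 FPKM) and MARS2, for methionine, was lower (10.7, 6.23 and 6.41 FPKM).

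Among 74 subunits of complexes I to V, ATP5H of ATP synthase was lower in 769-P (220.0, 145 and 142 FPKM). None of the 12 regulators of mitochondrial transcription and biogenesis, the 7 ribosome proteins with other symbols (a list that includes MRPL57) or the 68 cytosolic ribosomal proteins passed 1.5-fold with both siRNAs in either line. Of the cytosolic ribosomal proteins 48 of 68 were lower than the control with both siRNAs in 769-P and 9 of 68 in DU145, calls met by 39.5% and 22.2% of all genes tested. Their medians were -0.22 and 0.13 in DU145 and -0.089 and -0.16 in 769-P with siRNA 1 and siRNA 2. In DU145 siRNA 2 thus had the higher median, as in the members. The same order was seen in the complex I to V subunits (-0.050 and 0.084) and over all genes tested (0.074 and 0.12). The 12 regulators of mitochondrial transcription and biogenesis had the opposite order (0.092 and 0.069).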

How the data were processed

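The authors aligned paired-end reads to the hg19 build in TopHat2 with up to 2 mismatches, and the deposited FPKM values came from Cufflinks. FastQC and cutadapt are also named in the submitters' processing notes. Versions, annotation and strand handling are not given in the sources used here. The study and the labels describe different library kits and RNA amounts. FPKM keeps no read count, so neither a count test nor a counting interval could be used, and how precise 1 value is remains unknown.

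Repeated symbols were summed, and rows naming several genes were not split. A pseudocount of 1 was added before log2, and tests covered genes whose 6 libraries averaged 1 FPKM or more. limma 3.58.1 in R 4.3.3 was fitted across all of them with 4 groups (line by control or knockdown) and eBayes with a trend, with two-sided p-values and Benjamini-Hochberg adjustment. The fit had 2 residual degrees of freedom, which come from the siRNA pairs, and each control library was assumed to vary like them. The script was tested on simulated data. Calls by size required that both siRNAs pass 1.5-fold in 1 direction. Relative depth was estimated from the ratios of low values. Positions came from the GENCODE annotation of GRCh37. Python 3.11.15, pandas 2.3.3, numpy 2.4.6 and matplotlib 3.10.9 were used.

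The members and gene lists were chosen with earlier results of these data known. Named were SPOP, the 5 highest members of each subunit, those past 1.5-fold with both siRNAs, the 5 with the largest line difference in each direction without overlap, the 3 per line that differed most between siRNAs, the 3 lowest, the MRPS18 paralogs, those at 0 or below the filter, those past an adjusted p of 0.05, and at most 4 genes past 1.5-fold per other list and line. The alternatives were a pseudocount of 0.1, a filter at 5 FPKM or none, the highest of repeated rows, median-centred values, quantile normalization, no trend, a replicate block by siRNA number, subunits by structure, and each library left out. Subtracting the mean of the olfactory receptor genes was added after the data were seen. Of 15 mitochondrially encoded symbols 0 were in the files used here, and they were not analysed. The result for 1 gene of the other lists is not reported here.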

Additional observations from a re-analysis of the deposited data

How the results depend on the processing

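Under the alternatives 0 members passed limma for knockdown in either line or for the interaction. Counts that moved did so mainly with scaling and with single siRNAs. With median-centred values the members past 1.5-fold lower with both siRNAs went from 0 to 1 in DU145 and from 2 to 1 (MRPL39) in 769-P, those lower without regard to size from 16 to 33 in DU145 (35.7% of all genes) and from 41 to 27 in 769-P (31.6%), the 769-P medians from -0.057 to 0.023 (large subunit) and from -0.15 to -0.072 (small subunit), and the members wholly above or below 769-P in DU145 from 18 and 21 to 9 and 33 (28% and 29.8% of all genes). Centring sets the median of each library to 0 by construction. With MRPS30 and MRPS18A read with the large subunit and MRPS36 left out, 1 member passed 1.5-fold lower in 769-P and the large subunit median was -0.073. With each siRNA alone, the ranges were 0 to 2 members past 1.5-fold higher and 0 to 5 lower in DU145, 22 to 44 lower without regard to size in DU145, 5 to 6 past 1.5-fold lower in 769-P, and -0.056 to -0.039 for the large subunit median in 769-P. With 1 siRNA library left out, 5 to 14 members differed between the lines by limma (20 with all libraries), where the lone library of that group was assumed to vary like the others. Leaving out a control library leaves no change to measure. The line count was 14 of 74 members without a filter (18.6% of all genes) and 18 of 73 with a pseudocount of 0.1 (40.5%). It was 24 of 73 after quantile normalization (44.8%) and 19 of 73 without the trend (41.8%). Without a filter the share of the members was thus close to that of all genes. Without DU145 siRNA 1 the DU145 log2 differences of MRPL50 and MRPS33 (-0.14 and -0.45) turned to 0.55 and 0.30, and without siRNA 2 they were -0.83 and -1.20. Of the 20 line differences that passed limma, 204 of 260 values under the alternatives passed again, 41 lost the call with a library left out and 15 with all 6 libraries.

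The siRNA number pairs libraries of the lines only by reagent. With a replicate block for the reagent 25 members differed between the lines, against 20, and 0 passed for knockdown or the interaction. The share of all genes that differed between the lines rose as well, from 42.1% to 50.4%. Over 11865 genes the siRNA 2 minus siRNA 1 differences of the lines had a Pearson correlation of 0.27. Depth is known only relative to 1 library, so small differences of members near 5 FPKM cannot be weighed against counting error.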

Other observations

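MRPL53, MRPS6 and MRPS24 are listed only in rows that name several genes, so they were not counted as members. The row of CCDC142 and MRPL53 had 37.8, 62.3 and 60.4 FPKM in DU145 (control, siRNA 1, siRNA 2) and 13.1, 34.4 and 31.8 FPKM in 769-P. It was above the control with both siRNAs in both lines, with log2(FPKM + 1) differences of 0.70 and 0.66 in DU145 and 1.32 and 1.21 in 769-P. The values do not say which of the genes of the row carried the difference. The row of MRPS6 and SLC5A3, a myo-inositol transporter gene, had 54.6, 68.1 and 77.8 FPKM in DU145 and 56.4, 71.5 and 60.5 FPKM in 769-P. The row of MRPS24 and URGCP had 185, 209 and 213 FPKM in DU145 and 149.8, 168 and 155 FPKM in 769-P. These rows were read after the values had been seen, with no test.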
